A study of Macaca nemestrina with 58 samples.

Results

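The genes described here are 9 genes of tight junctions: the claudins CLDN1, CLDN3, CLDN4, CLDN5, CLDN7 and CLDN8, occludin (OCLN), and the cytoplasmic scaffold genes TJP1 and TJP3. They were taken as every probe set whose single gene symbol in the array annotation is one of these names. This gave 13 probe sets of 52707 that are not controls. Of the 13, 12 were among the 31624 probe sets, of 11199 genes, above the brightness filter (the 40th percentile of mean level). Each gene is described by its brightest probe set, and the other probe sets of CLDN1, CLDN3, CLDN4 and TJP1 are given where they differ. The level is the deposited log2 intensity, and a difference of 1 on this scale is a factor of 2. Levels were compared between samples of a gene and not between genes, because probe sets differ in brightness for the same amount of RNA.

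The samples were vaginal pinch biopsies of 15 pig-tailed macaques (Macaca nemestrina), measured on 58 arrays designed for the rhesus macaque. Untreated baseline biopsies were labelled early follicular (10), late follicular (5, counting the mean of a duplicated array and its partner once), early luteal (4) or late luteal (9). In 9 animals the treatment was DMPA, the injected progestin depot medroxyprogesterone acetate, at a labelled dose of 0.5, 1.5 or 2.5 with no unit, and these animals were sampled at times coded 1D4 (8 samples) and 2D2 (9 samples). The other 6 animals belonged to the arm labelled LNG, at a High or Low dose in 3 animals each, and were sampled at times coded 5th and 7th (6 samples each). The series design text describes the treated samples as 5 weeks after the first dose of COC, a combined oral contraceptive, and 2 weeks after the second DMPA injection. It does not say which code is which, and the labels do not say what the mark (A-) on 1 array at the 5th and 4 at the 7th time means. The DMPA animals gave 17 of the 28 baseline samples and the LNG animals 11.

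Tight junctions seal the space between neighbouring epithelial or endothelial cells. Claudins and occludin span the membrane and form the strands of the seal, with the mix of claudins setting which ions and molecules pass, and the TJP proteins (zonula occludens proteins, ZO) tie the strands to the actin cytoskeleton. In the squamous lining of the vagina such proteins lie mainly in the lower and middle cell layers, while CLDN5 is best known as the claudin of blood vessel endothelium. Probe sequences and promoters of these genes were not used here.

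Markers of squamous epithelium were present in the biopsies, and fell with DMPA. The mean log2 level of 13 suprabasal squamous genes (such as KRT13, IVL and DSG1) ranged from 9.08 to 13.25 in the baseline, from 7.41 to 12.94 at 1D4 and from 7.25 to 12.03 at 2D2. At 2D2 it was lower than at baseline in 8 of 9 animals, and 11 of the 13 genes fell. In each animal the 10 columnar epithelial markers with a probe set (such as KRT8, PIGR and AGR2) had a higher mean at 2D2 than in its baseline (9 of 9). Basal keratinocyte markers could be read from 3 of 9 genes (ITGA6, ITGB4 and TP63). In bulk biopsies fewer cells of a type and less RNA per cell cannot be told apart. A pair of arrays stood apart. In the early follicular array of animal BB981 the columnar mean (6.86) and the macrophage mean (7.06) were the lowest of the 57 samples. In the 5th array of the LNG animal BB4800 the squamous mean (6.90) and the basal mean (9.57) were the lowest of the 57 and the endothelial (9.01), smooth muscle (12.29) and pericyte (9.19) means the highest. For some of the genes values are also given without either array. The late luteal against early luteal difference of CLDN8 was -1.49 with all arrays and 0.32 without that of BB981.

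**Figure D1:**
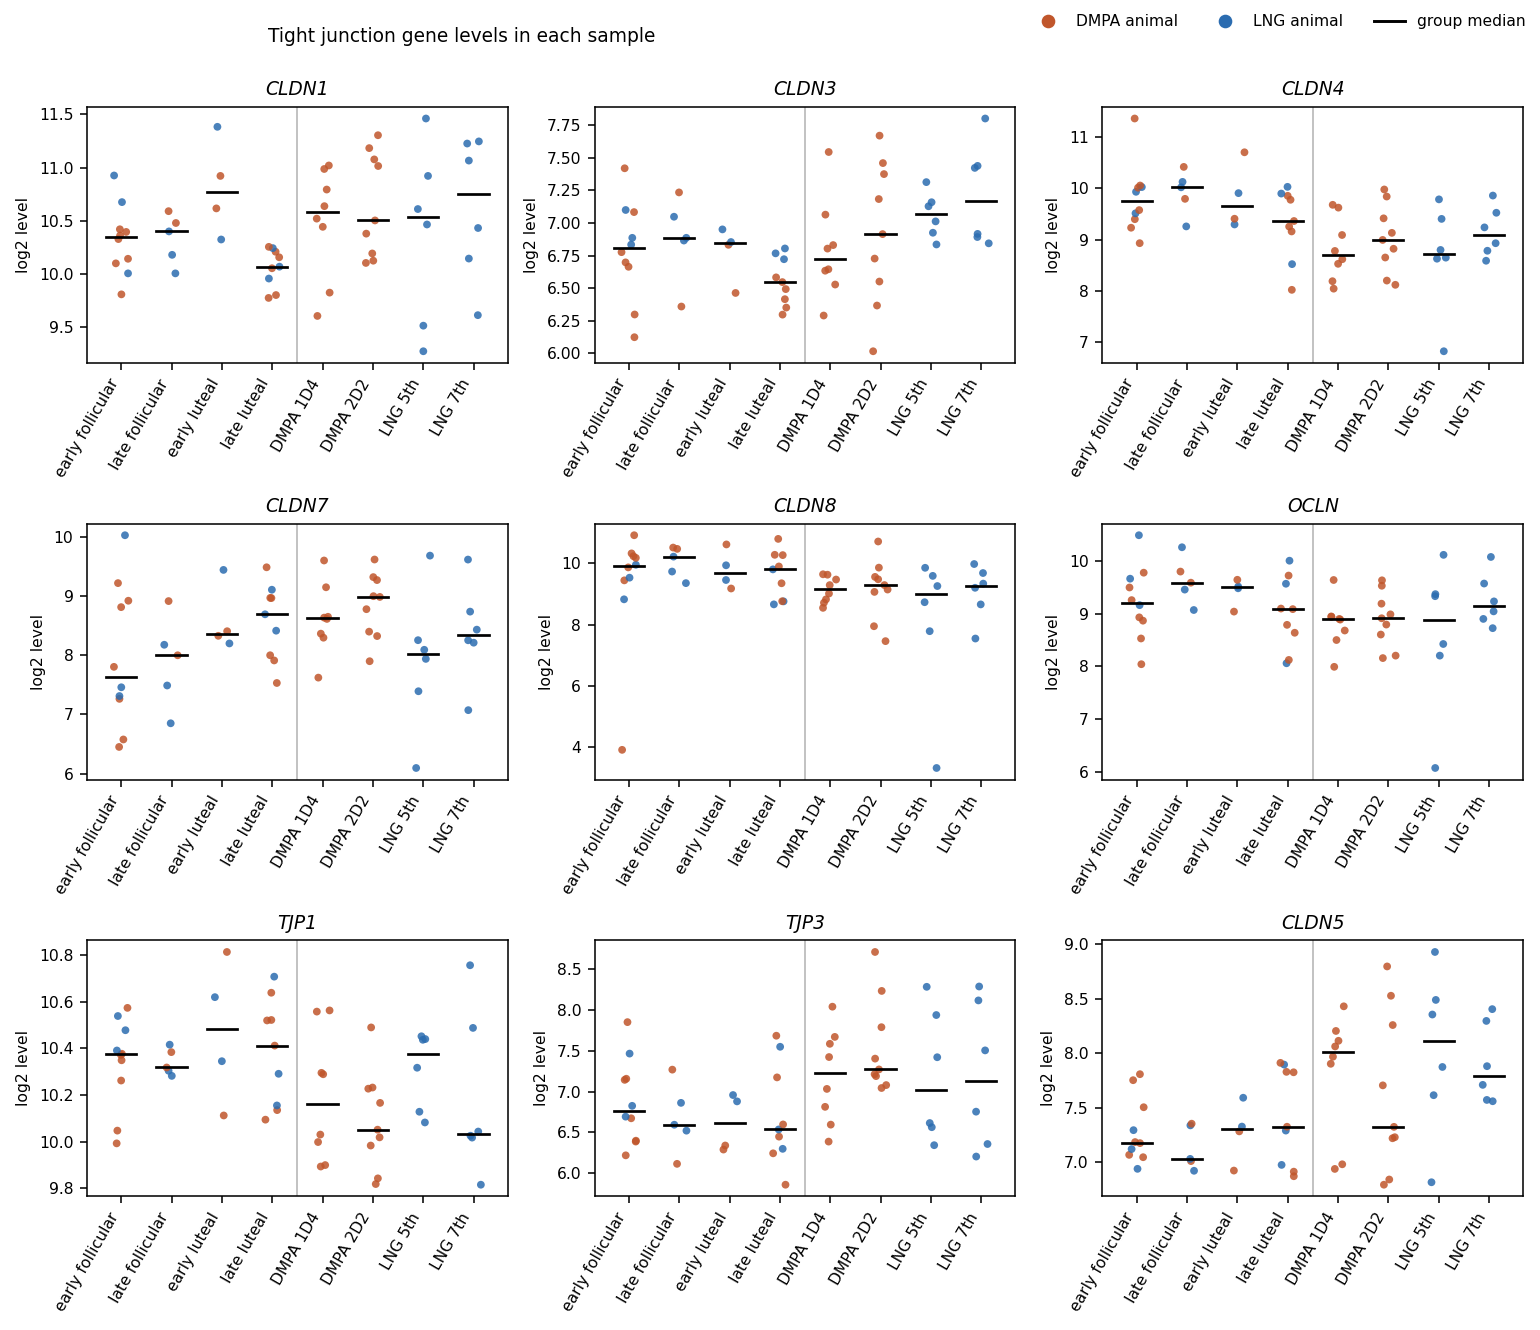
Deposited log2 level of each gene's brightest probe set (vertical axis) in every sample, by baseline cycle phase and treated time. Points are samples, coloured by the arm of the animal, and bars are group medians. All 9 DMPA 2D2 samples of TJP3 lie above its median in the baselines of the same animals (6.45), and single low points stand out for CLDN8 in the early follicular phase (3.92) and at LNG 5th (3.33).

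With DMPA the tight junction genes moved in both directions. At 2D2, 5 of the 9 genes passed at an adjusted p under 0.05 when compared with the pooled baseline, with the animal as a block: TJP3, CLDN7 and CLDN3 rose, and CLDN4 and TJP1 fell. CLDN1, CLDN5, CLDN8 and OCLN did not pass. Among all probe sets tested 28.1% passed in this comparison, 16% higher and 12.1% lower. The median change of the 9 genes was 0.28, beside 0.04 over all probe sets. At 1D4, TJP3 rose and CLDN4 fell, so that 2 of 9 genes passed where 23.2% of all probe sets did (11.3% higher and 11.9% lower).

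Of the scaffold genes, TJP3 (ZO-3, a scaffold found in epithelial junctions, probe set MmugDNA.18407.1.S1_at) lay between 5.86 and 7.85 in the baselines of the DMPA animals, with a median of 6.45. At 2D2 its levels ran from 7.05 to 8.71 with a median of 7.27. The groups overlapped, but 9 of 9 treated samples were above the baseline median and 2 were above all 17 baselines. TJP3 rose by 0.84 ± 0.17 (log2 change ± SE), or 1.79-fold, with an adjusted p of 0.000690, and was higher than the animal's own mean baseline in 9 of 9 animals. The change per animal ran from 0.30 to 1.79. It passed also when any one of the 9 DMPA animals was left out, with changes of 0.75 to 0.91. At 1D4 the levels were 6.39 to 8.04 (median 7.23), and TJP3 rose by 0.62 ± 0.18 (adjusted p = 0.0145), in 7 of 8 animals. Without animal BB0499 the change at 1D4 was 0.58 with an adjusted p of 0.0536.

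TJP1 (ZO-1, the scaffold first found at tight junctions and present in epithelium and endothelium) went the other way, and was read by 2 probe sets above the filter. Its brighter probe set, MmuSTS.4030.1.S1_at, lay between 9.99 and 10.81 (median 10.37) in the baselines of the DMPA animals and between 9.82 and 10.49 (median 10.05) at 2D2, with 3 of 9 samples below all 17 baselines. It fell by 0.27 ± 0.09 (adjusted p = 0.0215), in 8 of 9 animals. The call was lost without animal BB981 (-0.21, adjusted p = 0.0796) or without animal PHQ1 (-0.25, adjusted p = 0.0560). The other probe set, MmugDNA.22990.1.S1_at, separated the groups more: 9.46 to 10.30 (median 9.80) in the baseline against 8.76 to 10.03 (median 9.19) at 2D2, with 8 of 9 treated samples below all 17 baselines. It fell by 0.60 ± 0.12 (adjusted p = 0.000511) and was lower in 9 of 9 animals. At 1D4 that probe set fell by 0.41 (adjusted p = 0.0177), while the brighter one changed by -0.19 and missed the threshold (adjusted p = 0.127), which it passed without animal PPi2 (-0.26, adjusted p = 0.0399). Across the 57 samples the log2 levels of the TJP1 probe sets had a correlation of 0.83, with no animal mean subtracted.

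**Figure D2:**
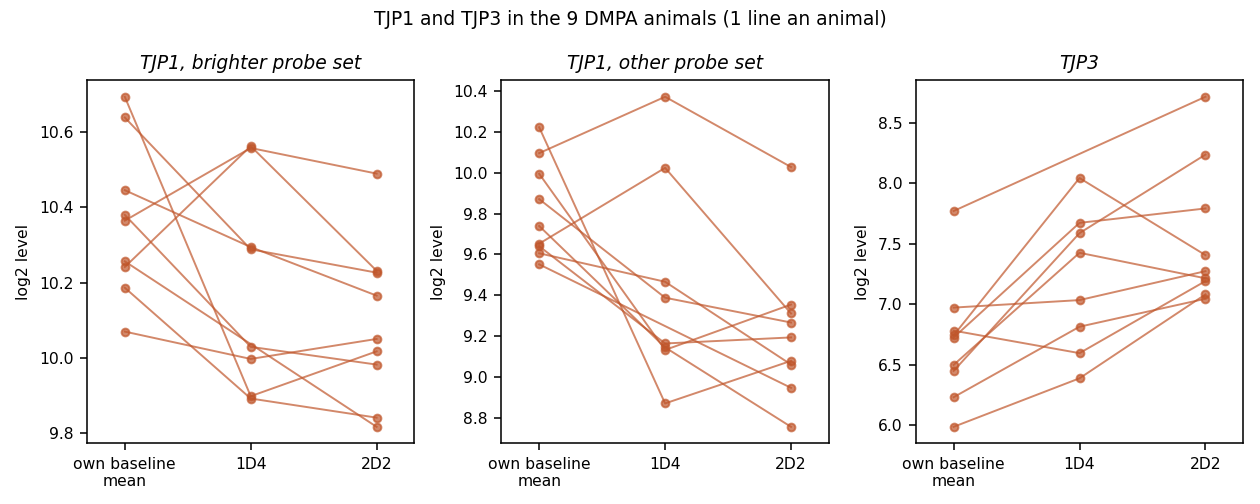
Log2 level (vertical axis) of both TJP1 probe sets and of TJP3 in the 9 DMPA animals, as the animal's mean baseline, 1D4 and 2D2. Each line is an animal, and 1 animal has no 1D4 sample. TJP3 is higher at 2D2 than at baseline in 9 of 9 animals, and the second TJP1 probe set is lower in 9 of 9.

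Of the epithelial claudins, CLDN7 and CLDN3 rose at 2D2. CLDN7, a claudin of many epithelia that also lies along the sides of cells, had levels of 6.45 to 9.48 (median 8.33) in the baselines of the DMPA animals and of 7.90 to 9.61 (median 8.98) at 2D2. The ranges overlapped almost fully, with 1 of 9 treated samples above all baselines, but each of the 9 animals was above its own baseline, by 0.26 to 1.07. CLDN7 rose by 0.64 ± 0.24, or 1.56-fold (adjusted p = 0.0393). This call was close to the threshold: it was lost in 6 of 9 fits without an animal (BB0540, BB405, BB521, BB981, PHQ1 or PPi2), in which the change stayed between 0.59 and 0.67, and without the early follicular array of BB981 (0.58, adjusted p = 0.0646). At 1D4 CLDN7 was higher in 8 of 8 animals, with a change of 0.54 ± 0.25 and an adjusted p of 0.105.

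CLDN3, one of the claudins that tighten the barrier, lay between 6.12 and 7.42 (median 6.55) in the baselines of the DMPA animals and between 6.02 and 7.67 (median 6.91) at 2D2. The treated samples thus spanned the whole baseline range. It rose by 0.29 ± 0.11 (adjusted p = 0.0437), in 7 of 9 animals, and the call was lost when any of BB0540, BB108, BB405, BB521, BB770, BB981 or PHQ1 was left out (changes of 0.22 to 0.31). Its other probe set did not follow: its change at 2D2 was -0.08 ± 0.12 (adjusted p = 0.663), with 5 of 9 animals higher. The correlation between the probe sets of CLDN3 was 0.54, so the rise of CLDN3 rests on 1 probe set.

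CLDN4, which is best known as a claudin that limits the passage of sodium, was lower with DMPA. Its baseline in the DMPA animals ran from 8.02 to 11.36 (median 9.57). It ran from 8.04 to 9.68 (median 8.70) at 1D4 and from 8.12 to 9.98 (median 8.99) at 2D2. No treated sample was outside the baseline range, but 6 of 8 at 1D4 and 7 of 9 at 2D2 were below the baseline median. CLDN4 fell by 0.85 ± 0.25 at 1D4 (adjusted p = 0.0155), in 6 of 8 animals, and by 0.65 ± 0.24 at 2D2 (adjusted p = 0.0344), in 6 of 9. The animals differed widely at 2D2, from -2.04 in BB981 to 0.56 in BB108. Without BB981 the changes were -0.56 at 1D4 (adjusted p = 0.0994) and -0.47 at 2D2 (adjusted p = 0.126). The call at 1D4 was also lost without BB0540 (-0.74) or PHQ1 (-0.78), and that at 2D2 without BB0499 (-0.53), BB0540 (-0.60) or BB770 (-0.62). Without only the early follicular array of BB981, which holds the highest CLDN4 level of its phase, the change at 2D2 was -0.56 with an adjusted p of 0.0606. The change at 1D4 without that array was -0.75 and still passed (adjusted p = 0.0273). The second CLDN4 probe set, with a mean of 3.63, was below the brightness filter and was not tested.

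The other membrane proteins did not pass at either DMPA time. For CLDN1, whose loss in mice breaks the barrier of the skin, the change at 2D2 was 0.37 ± 0.16 (adjusted p = 0.0734), with 7 of 9 animals higher and 4 of 9 samples above all 17 baselines. Without animal BB770 it was 0.45 with an adjusted p of 0.0347. For OCLN, the first membrane protein found in tight junctions, it was -0.20 (95% interval from -0.65 to 0.25), with 5 of 9 animals lower. For CLDN8, a claudin that holds back cations in kidney and colon, the interval was wide, from -1.59 to 0.53 around -0.53. CLDN8 in animal BB981 was 3.92 in its early follicular array and 10.62 in its early luteal array, and this animal was the one with the largest rise in the plot of changes by animal, at 2.02 for both DMPA times. Without that early follicular array the change of CLDN8 was -0.90 (adjusted p = 0.0896) at 2D2 and -0.93 (adjusted p = 0.109) at 1D4.

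CLDN5, the endothelial claudin, was uneven among the DMPA animals. Its levels were 6.87 to 7.91 (median 7.28) in their baselines, 6.94 to 8.43 (median 8.01) at 1D4 and 6.79 to 8.80 (median 7.32) at 2D2. At 1D4, 5 of 8 samples were above all 17 baselines, and the change was 0.49 ± 0.22 (adjusted p = 0.0951). At 2D2, 3 samples were above and 2 below all baselines, and the change was 0.28 ± 0.21 (adjusted p = 0.321). The mean of 14 endothelial markers was higher than the own baseline in 7 of 8 animals at 1D4 and in 4 of 9 at 2D2, with 2 and 0 of the 14 genes passing (10 and 0 at an unadjusted p under 0.05). The part of vessel content in the CLDN5 levels was not tested.

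**Figure D3:**
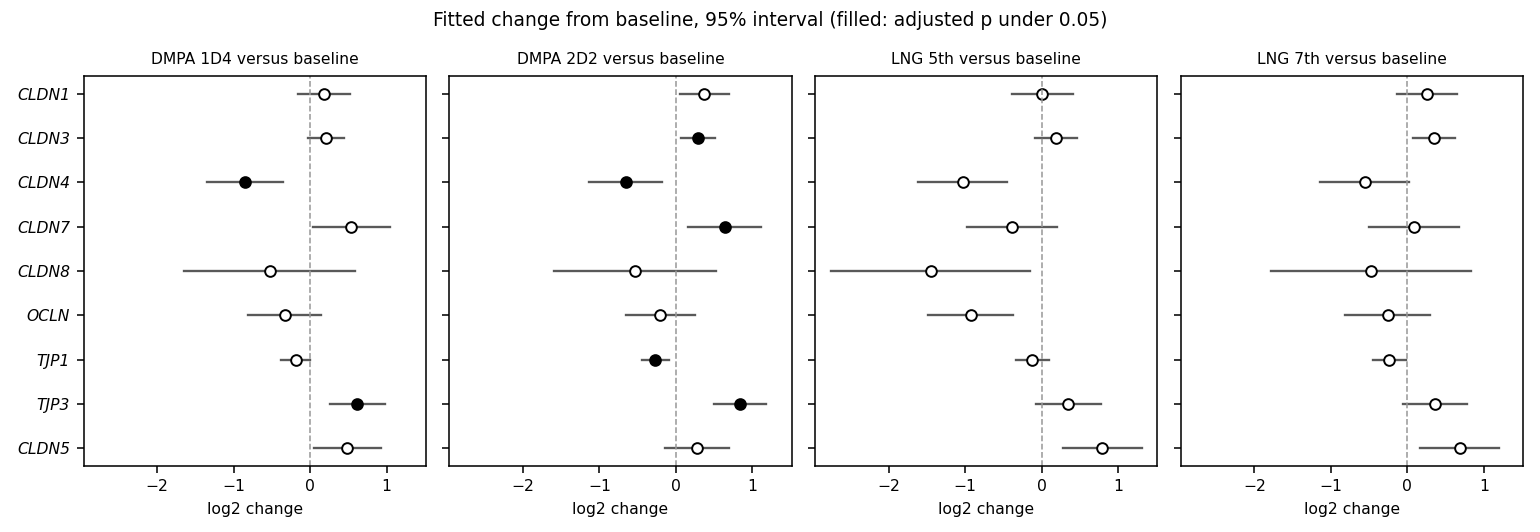
Fitted log2 change from the pooled baseline (horizontal axis) for the 9 genes at the 4 treated times, with 95% intervals. Filled points passed at an adjusted p under 0.05. At 2D2 the filled points are CLDN3, CLDN4, CLDN7, TJP1 and TJP3, at 1D4 CLDN4 and TJP3, and no point is filled for LNG.

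Both directions of the DMPA changes ran beside other measured changes in the same biopsies. The columnar marker mean, with which TJP3 and CLDN7 had positive correlations, was higher in 9 of 9 animals at 2D2, where 6 of its 10 genes rose and 1 fell. The squamous mean, with which TJP1 and CLDN4 had positive correlations, was lower in 8 of 9. OCLN (0.44) and CLDN8 (0.35), which did not pass, also had positive correlations with the squamous mean. So did CLDN3 (0.40) with the columnar mean, and CLDN1 (0.44), CLDN8 (0.24) and CLDN5 (0.14), which did not pass. All these correlations were taken over samples that include the DMPA ones. The Langerhans list was read from CD1C and FCGBP alone, with CD207 and CD1A below the filter; its mean, with correlations of 0.67 with TJP3 and -0.67 with TJP1, was higher in 8 of 9 animals at 2D2 and 7 of 8 at 1D4, and 1 of its 2 genes rose at each time. The part of these in the changes was not tested. A measure of RNA quality, the GAPDH signal at the 3′ end less that at the 5′ end, was higher than the own baseline in 8 of 9 animals at 2D2, by 0.74 on average, and in 6 of 8 at 1D4, by 0.31. Because this difference moved with treatment, a fit with it as a covariate cannot tell RNA quality and treatment apart. With this difference as a covariate none of the 9 genes and 0 of all probe sets passed at 2D2 (2 of the 9 genes and 2802 probe sets had an unadjusted p under 0.05 in limma): the change of TJP3 was then 0.67 (adjusted p = 0.374), that of CLDN7 0.43, that of TJP1 -0.14 and that of CLDN4 -0.09. At 1D4 no gene passed with that covariate (TJP3 0.55, CLDN4 -0.62). None passed either with a stroma covariate, the mean of both stromal marker lists (TJP3 0.74, CLDN4 -0.53). An unadjusted p under 0.05 in limma was found for 2 of the 9 genes and 7795 probe sets with the GAPDH covariate. With the stroma covariate it was found for 4 of the 9 genes and 6534 probe sets.

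No difference between the treated times of DMPA was found for these genes. Between 2D2 and 1D4 none of the 9 genes passed, and 0% of all probe sets did; 1655 probe sets and none of the 9 genes had an unadjusted p under 0.05. The difference was 0.22 for TJP3 (95% interval from -0.19 to 0.62) and 0.20 for CLDN4 (-0.37 to 0.76), which leaves the size and direction of any change between the times undetermined.

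Set against the luteal baseline alone, when the animals' own progesterone is high, 3 of 9 genes passed at 2D2 where 10.6% of all probe sets did (5.58% higher and 5.03% lower). The early luteal phase, with 4 samples, had the same weight as the late luteal one. No animal was sampled in both, and the DMPA animal PHQ1 in neither. The fit with animal as a block thus reaches part of this contrast only through samples of other phases. TJP3 rose by 1.03 ± 0.19 (adjusted p = 0.00102) and CLDN3 by 0.40 ± 0.13 (adjusted p = 0.0388), and TJP1 fell by 0.34 ± 0.10 (adjusted p = 0.0227). TJP3 passed in each of the 9 fits that left out a DMPA animal. CLDN3 was lost without any of BB0540, BB108, BB405, BB521, BB770, BB981 or PHQ1 (0.33 to 0.43), and TJP1 without BB0540, BB521, BB981 or PHQ1 (-0.34 to -0.26). The second TJP1 probe set fell by 0.64 (adjusted p = 0.00215), while that of CLDN3 changed by -0.01. CLDN4 had a change of -0.64 (adjusted p = 0.110), close to its value against the whole baseline. CLDN7 had a smaller one there, 0.38 (adjusted p = 0.311) in place of 0.64. With the GAPDH difference as covariate none of the 9 genes passed, and TJP3 changed by 0.86 (adjusted p = 0.123). In that limma fit 2 of the 9 genes and 3514 probe sets had an unadjusted p under 0.05.

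In the LNG arm no tight junction gene passed at either time. At the 5th time 0% of all probe sets passed with limma, although 6828 of them and 4 of the 9 genes had an unadjusted p under 0.05. At the 7th time 0.00632% passed, and 7487 probe sets and 3 of the 9 genes had such a p. The genes nearest to the threshold were CLDN4, OCLN and CLDN5.

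CLDN4 lay between 8.52 and 10.13 (median 9.91) in the baselines of the LNG animals, between 6.82 and 9.78 (median 8.72) at the 5th and between 8.59 and 9.86 (median 9.08) at the 7th time. All 6 treated samples at each time were below the baseline median, and 6 of 6 animals were below their own baseline at each. The change was -1.03 ± 0.29 at the 5th time (95% interval from -1.62 to -0.45, adjusted p = 0.0588) and -0.56 ± 0.29 at the 7th (adjusted p = 0.231). OCLN ran from 8.06 to 10.49 (median 9.52) in the baseline and from 6.07 to 10.12 (median 8.88) at the 5th time, with a change of -0.93 ± 0.27 (adjusted p = 0.0639) and 5 of 6 animals lower. At the 7th time its change was -0.25 (-0.81 to 0.30). The squamous mean was lower in 4 of 6 animals at the 5th and in 5 of 6 at the 7th time, with 0 of 13 genes passing and 13 and 11 at an unadjusted p under 0.05. The smooth muscle mean was higher in 5 of 6 and 4 of 6 animals, by 2.65 and 0.77 on average, with 0 of 6 genes passing and 6 and 0 at an unadjusted p under 0.05. The GAPDH difference, 3′ end less 5′ end, was higher in 5 of 6 animals at the 5th time (0.40 on average) and in 6 of 6 at the 7th (0.47). With the GAPDH covariate in limma, 3 of 9 genes and 2475 probe sets had an unadjusted p under 0.05 at the 5th time. At the 7th time these were 1 and 2110. With the stroma covariate they were 2 and 1406 at the 5th and 3 and 3236 at the 7th time. The part of the squamous mean in the LNG values was not tested. Beyond these fits the part of the other measures was not tested. The difference of OCLN between the times, 0.67, had an adjusted p of 1.00 and was 0.23 without the 5th array of BB4800, and no gene passed there among 0% of all probe sets (946 probe sets and 1 of the 9 genes, OCLN, had an unadjusted p under 0.05).

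CLDN5 pointed upward at both LNG times. Its levels were 6.92 to 7.89 (median 7.29) in the baselines, 6.81 to 8.93 (median 8.11) at the 5th time and 7.56 to 8.40 (median 7.79) at the 7th. It was above the animal's own baseline in 5 of 6 and 6 of 6 animals, with changes of 0.79 ± 0.26 (adjusted p = 0.0756) and 0.69 ± 0.26 (adjusted p = 0.111). The mean of the 14 endothelial markers was higher in 6 of 6 animals at both times, by 0.74 and 0.84 on average, with 0 of the 14 genes passing and 10 and 12 of them at an unadjusted p under 0.05. The fibroblast mean was higher in 5 of 6 and 6 of 6 animals.

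None of the remaining genes passed at the 5th time. TJP3 changed by 0.35 (-0.07 to 0.77) and TJP1 by -0.12 (-0.34 to 0.10), with 3 of 6 and 4 of 6 animals on those sides. The second TJP1 probe set was lower in 5 of 6 animals at both times, with changes of -0.38 (adjusted p = 0.110) and -0.44 (adjusted p = 0.0824). CLDN7 changed by -0.39 (-0.97 to 0.20), CLDN3 by 0.19 (-0.09 to 0.46), CLDN1 by 0.01 (-0.39 to 0.40) and CLDN8 by -1.45 (-2.76 to -0.15, adjusted p = 0.179). At the 7th time the intervals of CLDN3 and of the brighter TJP1 probe set, as of CLDN5, lay on 1 side of 0, and none passed. CLDN3 changed by 0.35 (0.07 to 0.62, adjusted p = 0.124), with 4 of 6 animals higher, while its other probe set changed by -0.19. TJP1 changed by -0.24 (-0.46 to -0.02, adjusted p = 0.172), with 5 of 6 animals lower. TJP3 changed by 0.36 (-0.06 to 0.78), CLDN1 by 0.25 (-0.14 to 0.65), CLDN7 by 0.09 (-0.50 to 0.68) and CLDN8 by -0.47 (-1.78 to 0.83).

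A single array carried part of the LNG values. The 5th array of BB4800 held the lowest CLDN8 (3.33), OCLN (6.07), CLDN4 (6.82) and CLDN7 (6.10) and the highest CLDN5 (8.93) of its group, beside its low squamous and high stromal means. Without it the changes at the 5th time were -0.44 for CLDN8, -0.47 for OCLN, -0.75 for CLDN4, -0.08 for CLDN7 and 0.61 for CLDN5, and none passed. In the other direction, without animal BB4870 CLDN4 (-1.20, adjusted p = 0.0205), OCLN (-1.09, adjusted p = 0.0234) and CLDN5 (0.98, adjusted p = 0.0212) passed at the 5th time, with 3186 of all probe sets. The call of these 3 genes at the 5th time thus changed with a single animal.

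**Figure D4:**
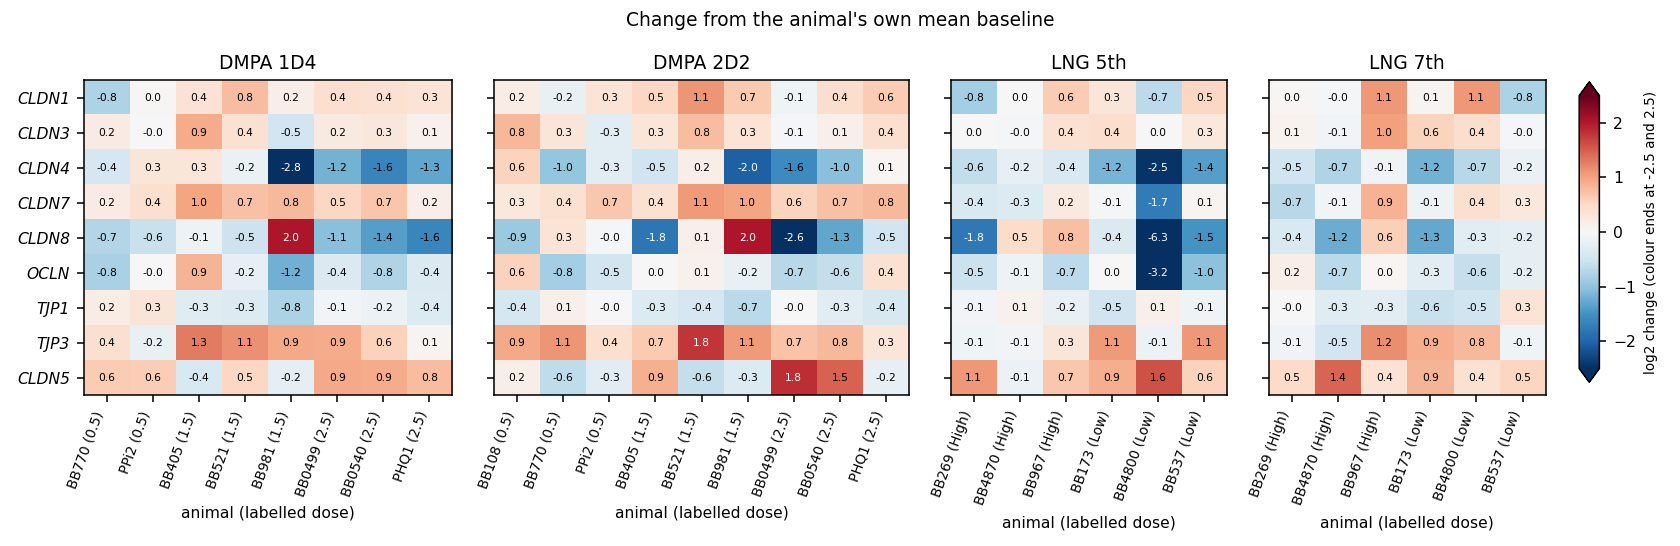
Change of log2 level from the animal's own mean baseline (colour, with the value printed) for the 9 genes, by animal and labelled dose, at the 4 treated times. TJP3 and CLDN7 are above 0 in all 9 animals at DMPA 2D2, and CLDN4 is below 0 in all 6 animals at both LNG times. The extreme values are -6.3 and -3.2 for CLDN8 and OCLN in BB4800 at the 5th time.

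The changes with DMPA at 2D2 and with LNG at the 5th time were set against each other directly, since each animal belongs to 1 arm and the changes share no control samples. None of the 9 genes passed, with 0% of all probe sets (2688 probe sets and 2 of the 9 genes had an unadjusted p under 0.05). CLDN7 differed most, with a change larger by 1.02 in DMPA (95% interval from 0.27 to 1.78, adjusted p = 0.518), and OCLN by 0.72 (0.01 to 1.44, adjusted p = 0.585). Without the 5th array of BB4800 these were 0.72 and 0.27. For TJP3 the difference was 0.49 (-0.05 to 1.03) and for CLDN4 0.38 (-0.37 to 1.13), or 0.09 without that array. A rise of TJP3 or a fall of CLDN4 with DMPA but not with LNG was therefore not shown by these samples.

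The labelled doses gave no call among the 9 genes. The dose slope at 2D2 was fitted on 3 animals at each of the doses 0.5, 1.5 and 2.5, and 0.00949% of all probe sets passed (2976 of them and 1 of the 9 genes, CLDN5, had an unadjusted p under 0.05). For CLDN5 the changes from own baseline were -0.63, -0.27 and 0.17 at the dose of 0.5, -0.59, -0.33 and 0.89 at 1.5, and -0.21, 1.48 and 1.84 at 2.5. The doses overlapped, and the slope was 0.64 ± 0.28 per dose unit (adjusted p = 0.526). For TJP3 the slope was -0.10 (-0.49 to 0.29). The 13 squamous genes had a median slope of -2.27, with 0 passing and 9 at an unadjusted p under 0.05 in limma. Between High and Low LNG at the 5th time 0.00632% of all probe sets passed and none of the genes did (3893 probe sets and 1 gene, CLDN4, had an unadjusted p under 0.05). CLDN4 levels moved by -0.20, -0.39 and -0.61 in the High animals and by -1.17, -1.37 and -2.45 in the Low animals. The High and Low animals differed by 1.27 ± 0.36 (adjusted p = 0.311). How many of all probe sets separate these groups of 3 was not counted. BB4800, whose 5th array stood apart, is a Low animal, and the difference was 0.87 without it and between 1.17 and 1.51 without each other animal. The 13 squamous genes were also higher in the High animals, with a median difference of 4.40. Of them 1 passed and 10 had an unadjusted p under 0.05 in limma. The part of the squamous genes in the dose values was not tested.

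Across the untreated cycle no tight junction gene passed in any of the 5 comparisons of phases. The luteal and follicular phases differed in 3.04% of all probe sets (2.1% higher, 0.939% lower), late luteal and early follicular in 0.152% (0.0949% higher, 0.0569% lower), and the 3 steps between neighbouring phases in 0%. The 3 steps had 2262, 2852 and 2627 probe sets with an unadjusted p under 0.05, in the order of the cycle from early follicular, and among the 9 genes 0, 1 and 1. Such a p was found for 3 of the 9 genes and 7012 probe sets between late luteal and early follicular, and for 1 gene and 8060 probe sets between luteal and follicular. CLDN7 and CLDN1 had the largest differences for their error.

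CLDN7 had its lowest median in the early follicular phase, at 7.63, with a range from 6.45 to 10.02. In the late follicular phase the 5 levels were 6.85, 7.49, 8.0, 8.18 and 8.91, and in the early luteal phase the 4 levels were 8.20, 8.33, 8.40 and 9.44. In the late luteal phase the levels ran from 7.53 to 9.48 with a median of 8.69, the highest of the 4 phases. All phases overlapped. Between late luteal and early follicular CLDN7 differed by 0.98 ± 0.32 (95% interval from 0.29 to 1.67, adjusted p = 0.119), and of the 6 animals sampled in both phases 5 were higher in the late luteal one, with a median difference of 1.32. Luteal against follicular it differed by 0.72 (0.11 to 1.34, adjusted p = 0.142).

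CLDN1 had its highest median, 10.77, in the early luteal phase, where the 4 levels were 10.33, 10.62, 10.92 and 11.38. The late luteal levels ran from 9.78 to 10.26 (median 10.07). How many of all probe sets separate these 4 and 9 samples was not counted. The early follicular levels ran from 9.81 to 10.93 (median 10.35), and the late follicular ones were 10.01, 10.18, 10.40, 10.48 and 10.59. Late luteal CLDN1 was 0.68 ± 0.15 below early luteal on the log2 scale, with an unadjusted p of 0.000474 and an adjusted p of 0.540. No animal was sampled in both luteal phases (0 shared, beside 6 for late luteal and early follicular), so the levels are of different animals. The fit with animal as a block reaches this difference only through samples of other phases. The second CLDN1 probe set differed by -0.70 (adjusted p = 0.540), and the probe sets had a correlation of 0.95.

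The other genes had smaller differences for their error. CLDN4 was 0.44 ± 0.16 lower in the late luteal than in the early follicular phase (adjusted p = 0.141), and OCLN 0.46 ± 0.22 lower (adjusted p = 0.246). For TJP3 the difference was 0.15 (-0.26 to 0.56), for TJP1 0.05 (-0.18 to 0.27), for CLDN3 -0.09 (-0.33 to 0.16) and for CLDN5 0.10 (-0.26 to 0.46). For CLDN8 it was -0.08 (-1.54 to 1.38), and -0.21 ± 0.18 without the low early follicular array of BB981. In these comparisons as well, stromal content differed between samples. The fibroblast mean ranged from 7.43 to 11.68 in the early follicular and from 8.48 to 12.18 in the late luteal phase. Between these phases 1 of the 9 genes and 1168 probe sets had an unadjusted p under 0.05 in limma with the stroma covariate. Without that covariate these were 3 and 7012. Beyond that fit, the part of stromal content in the differences was not tested.

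Other genes of tight junctions were read from a list of 63, of which 40 were on the array and 33 above the filter. At 2D2, 3 rose and 4 fell, and the median change was -0.10. Of 5 other claudins, CLDN15, a pore-forming claudin of the gut, rose by 0.97 ± 0.19 (adjusted p = 0.000537) and CLDN23 by 0.96 ± 0.28 (adjusted p = 0.0107), and CLDN6, a claudin of embryonic epithelium, fell by 0.38 ± 0.08 (adjusted p = 0.00122). Of 7 other membrane proteins, EPCAM, an epithelial adhesion molecule known to bind CLDN7, rose by 1.41 ± 0.41 (adjusted p = 0.0113). Of 11 plaque and scaffold genes, AMOTL2, of the angiomotin family, fell by 0.89 ± 0.20 (adjusted p = 0.00158). Of 10 polarity and signalling genes, the polarity genes PARD3 and PRKCI, whose proteins work in 1 complex, fell by 0.33 and 0.29.

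At 1D4 the same list again held 3 genes that rose and 4 that fell, with a median of -0.03. CLDN23 (1.00), EPCAM (1.17) and ARHGEF2 (0.66), a RhoA activator held at junctions, rose, and CLDN6 (-0.32), YBX3 (-0.25), AMOTL2 (-0.81) and PARD3 (-0.42) fell. At the LNG times none of the 33 passed with limma, and 11 at the 5th and 6 at the 7th time had an unadjusted p under 0.05. Against the luteal baseline CLDN15 rose by 1.02, and CLDN6 (-0.31), CGNL1 (-0.62) and AMOTL2 (-0.74) fell. At each DMPA time 7 of 33 passed, beside 28.1% of all probe sets at 2D2 and 23.2% at 1D4.

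Over the 57 samples, after each animal's mean was subtracted, the genes followed different cell type markers. These correlations are descriptions: the samples share animals and arrays, and treatment moves many genes at once. CLDN5 followed the endothelial mean (r = 0.84) and, nearly as closely, the smooth muscle (0.80) and fibroblast (0.74) means. Its nearest genes were LAMA4 (0.90), a basement membrane laminin of vessels, HTRA3 (0.87) and EGFL7 (0.87), itself on the endothelial list. TJP1 followed the squamous mean (0.70) and was nearest to DLGAP5 (0.80), EMP1 (0.79) and ECM1 (0.79), the last on the squamous list. TJP3 ran against the squamous mean (-0.77) and with the columnar one (0.65). It had a correlation of 0.67 with the mean of CD1C and FCGBP, the only genes of the Langerhans list above the filter. Its nearest genes were RAB17 (0.84), PIGR (0.81), itself on the columnar list, and TMC4 (0.81). TJP1 and TJP3 had a correlation of -0.67 with each other.

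CLDN4 followed the squamous mean (0.67) and OCLN the basal (0.51) and squamous (0.44) means, and both ran against the smooth muscle mean (-0.61 and -0.63). They had the highest correlation of any pair of the 9 genes, 0.75. CLDN4 was nearest to SOWAHC (0.87), UBE2G1 (0.86) and PLEKHG6 (0.86), and OCLN to CHMP4C (0.92), STK26 (0.88) and CNKSR1 (0.86). CLDN7 followed the columnar mean (0.75) and was nearest to SERINC2 (0.83), WDR72 (0.83) and SLC12A8 (0.81). CLDN3 was nearest to TP53I11 (0.76), SLC30A2 (0.72) and SLC44A4 (0.71), the last on the columnar list, and had a correlation of 0.71 with TJP3. CLDN1 followed the basal mean (0.61) and was nearest to POLR1D (0.82), OCIAD2 (0.82) and FZD6 (0.77). CLDN8 was nearest to LGR4 (0.92), RAB27B (0.85) and THSD4 (0.83), with 2 samples at which CLDN8 was more than 4 units below the rest of their groups.

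**Figure D5:**
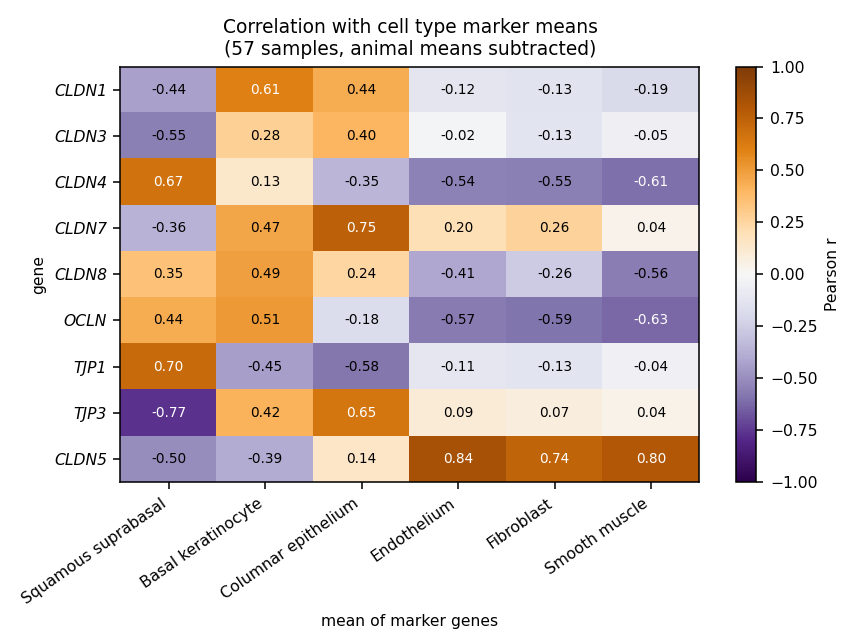
Pearson correlation (colour, with the value printed) between each of the 9 genes (rows) and the mean of 6 lists of cell type markers (columns) over 57 samples, after subtracting each animal's mean. Of the lists shown, CLDN5 has its highest value with endothelium (0.84), CLDN7 and TJP3 with columnar epithelium (0.75 and 0.65), and CLDN4 and TJP1 with squamous genes (0.67 and 0.70).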

How the data were processed

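Total RNA of the biopsies was amplified, labelled with biotin and hybridised, per the labels' protocols. The values deposited by the authors are log2 intensities between 1.37 and 14.57, with array medians of 6.07 to 6.25. The submitters' processing notes name affy and Partek; the background and normalization methods are not given in the sources used here. Precision is limited by the number of arrays. The 158 controls among 52865 probe sets were not used, and those under the 40th percentile of mean level (5.53) were removed, leaving 31624. Symbols came from the platform annotation. The duplicate array was averaged with its partner (SD of their differences over probe sets 0.486).

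limma 3.58.1 (R 4.3.3, statmod 1.5.0) fitted the log2 values with the animal as a fixed block. P-values were adjusted by Benjamini-Hochberg over all 31624 probe sets, with a threshold of 0.05. The same animals gave baseline and treated samples, and this is the pairing that the block uses; replicate numbers only name samples. The code was tested on simulated data. The genes, gene lists and tests were chosen with earlier results of these data known. The rule for names was every member, the listed tight junction genes that passed, and the 3 genes most correlated with each member. Alternatives covered the filter, centring, block, covariates, array weights, and samples left out. Genome positions were not used here.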

Additional observations from a re-analysis of the deposited data

Results flagged for a closer look

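Of 72 combinations of a gene and a group that were examined, 4 held a sample far from the others of its group, where chance gives about 1 in 20. In the early follicular phase CLDN4 was highest in animal BB981, at 11.361, with the nearest sample at 10.054. CLDN8 was lowest in that same array, at 3.9229, with the nearest at 8.8307. At the LNG 5th time CLDN8 was lowest in animal BB4800, at 3.3316, with the nearest at 7.792. In the early luteal phase CLDN7 was highest in animal BB173, at 9.438, with the nearest of the other 3 samples at 8.4036. BB173 also had the highest CLDN7 of the early follicular phase, at 10.02, and of both LNG times, at 9.68 and 9.61.

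The low CLDN8 arrays differed in the other genes. In the array of BB981 OCLN (9.78), TJP1 (10.57) and the squamous mean (12.75) were within the range of the other baselines, while in that of BB4800 the squamous mean (6.90) was the lowest of the 57 samples. CLDN8 was 9.29 at 1D4 and 9.30 at 2D2 in BB981, and 9.34 at the 7th time in BB4800.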

How the results depend on the processing

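TJP3 at DMPA 2D2 kept its direction and its call under every alternative run except the GAPDH covariate, which itself moved with treatment. At 2D2, where 5 of 9 genes passed, 3 passed with the animal as a random block, with no filter, with no replicate block (the fit that ignores the pairing by animal), and without the early follicular array of BB981, and 0 with the GAPDH covariate. Over all probe sets 8874 passed at 2D2, and 0 with that covariate. Against the luteal baseline 3 genes passed, 1 with no replicate block and 0 with the GAPDH covariate. At 1D4, 2 passed, 4 with array weights and 0 with the GAPDH or the stroma covariate; over all probe sets 7334, 11812, 1631 and 52 passed. At LNG 5th, 0 of the genes and 0 of all probe sets passed in the main fit. With a random block 1 gene passed, and 2 with array weights, with the phases as separate groups or with a filter at the 60th percentile. Without the arrays marked (A-) 3 passed. The (A-) array at that time is that of BB4870, and without that animal 3 genes and 3186 of all probe sets passed. The share of all probe sets in the other fits is not given here, so these counts are not read as a result about the genes. The block changed no count in the other comparisons. Leaving out each animal gave 1 to 4 genes at 2D2, 1 to 3 at 1D4, 1 to 3 against the luteal baseline and 0 to 3 at LNG 5th, and 0 to 0 in the other comparisons. Centring each array turned no call and moved the share of higher among all calls at LNG 7th from 0%, of only 2 calls, to 12.7%. The cause of these shifts was not tested. For 28 single gene results (those that passed under some setting, and others chosen after their values were seen), 244 of 287 alternative values other than those without an animal kept their side of the threshold, 26 lost the call, 17 gained it and 0 that passed changed sign (a sign change of a value that never passed is not counted). In 255 further fits of these results without 1 animal, 34 lost the call, 5 gained it and 0 changed sign. TJP3 at 1D4 was 0.44 (adjusted p = 0.167) with no replicate block. The alternatives without single arrays were chosen after seeing the data.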
